A study of Mus musculus with 24 samples.

Results

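ILC3s, the group 3 innate lymphoid cells, live in the gut wall and respond to interleukin-23 and interleukin-1. The 6 libraries described here are all H3K4me3 libraries of the Cxxc1 knockout, out of 24 libraries in the series. They were chosen by their labels alone: 2 libraries each of CCR6+, NKp46+ and DN ILC3s from mice with floxed Cxxc1 alleles and a Cre, called KO here. The control group, called WT here, is the same 3 subsets from Cxxc1flox/flox mice, again with 2 H3K4me3 libraries each. Both genotypes carry the floxed alleles, and only KO carries the Cre. The cells came from the small intestine, with 100000 cells per library. By their labels the mice were 6 to 8 weeks old, while a protocol text also names aged mice and a culture medium. Nothing in the labels tells whether the 2 replicates of a group, or the subsets of a replicate number, are separate animals, and p-values therefore measure a spread that may be technical.

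Cxxc1 encodes CFP1, which binds unmethylated CG dinucleotides and belongs to the SET1 complexes that trimethylate lysine 4 of histone H3 (H3K4me3) at gene starts. H3K4me3 marks the starts of active and poised genes, and wide H3K4me3 domains often cover genes that define a cell type. In the gut, CCR6+ ILC3s include the lymphoid tissue inducer-like cells, which can carry MHC class II. NKp46+ ILC3s express the receptor encoded by Ncr1 and share part of a programme with natural killer cells, driven by the transcription factor T-bet. The DN (double-negative) subset carries neither surface marker, and NKp46+ cells can arise from it under Notch signals. The question put to these libraries was whether the subsets can still be told apart by H3K4me3 in the KO.

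A gene was counted as holding H3K4me3 in a library where a deposited peak overlapped, by 1 b or more, the 1000 b on either side of an annotated start. Where the start table has no entry, both annotated gene ends were used. The 300 b around the start of 5 genes are given as examples, and they do not stand for all starts on which the subsets did or did not differ. They run from 250 b before the start to 50 b after it, 5′ to 3′ on the gene's strand, from RefSeq on GRCm38.p6. CG dinucleotides are in capitals. The genes were picked after their values were seen: Ncr1 for NKp46+, H2-DMb2 for CCR6+, Cd5 for DN, Ccr6 (its upstream start) for a sort marker without a peak there, and Tbx21 for a subset regulator with a peak everywhere.
Ncr1, chr7:4337465-4337764, plus strand: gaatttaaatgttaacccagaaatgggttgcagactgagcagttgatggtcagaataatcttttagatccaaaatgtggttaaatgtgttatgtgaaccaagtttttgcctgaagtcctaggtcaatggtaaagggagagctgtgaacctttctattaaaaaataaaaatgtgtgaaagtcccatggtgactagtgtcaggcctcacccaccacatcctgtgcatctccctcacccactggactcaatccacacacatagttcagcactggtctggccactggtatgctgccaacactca
H2-DMb2, chr17:34144999-34145298, plus strand: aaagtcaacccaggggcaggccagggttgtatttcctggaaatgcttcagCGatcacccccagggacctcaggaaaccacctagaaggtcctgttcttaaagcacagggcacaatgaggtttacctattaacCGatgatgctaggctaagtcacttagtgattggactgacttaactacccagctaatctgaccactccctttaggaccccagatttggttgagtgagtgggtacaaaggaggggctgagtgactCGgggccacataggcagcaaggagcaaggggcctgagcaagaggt
Cd5, chr19:10738925-10739224, minus strand: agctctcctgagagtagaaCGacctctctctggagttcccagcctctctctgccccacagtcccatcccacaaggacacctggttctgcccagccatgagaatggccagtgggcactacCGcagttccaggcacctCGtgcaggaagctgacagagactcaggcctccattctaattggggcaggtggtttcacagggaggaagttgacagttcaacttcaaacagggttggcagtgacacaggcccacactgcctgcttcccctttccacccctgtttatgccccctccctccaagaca
Ccr6, chr17:8235793-8236092, plus strand: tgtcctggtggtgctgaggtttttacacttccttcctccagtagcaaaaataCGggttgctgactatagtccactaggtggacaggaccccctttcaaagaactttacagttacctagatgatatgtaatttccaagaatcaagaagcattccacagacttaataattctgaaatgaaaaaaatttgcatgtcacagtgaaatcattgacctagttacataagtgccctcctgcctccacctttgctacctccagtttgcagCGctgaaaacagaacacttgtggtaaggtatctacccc
Tbx21, chr11:97115282-97115581, minus strand: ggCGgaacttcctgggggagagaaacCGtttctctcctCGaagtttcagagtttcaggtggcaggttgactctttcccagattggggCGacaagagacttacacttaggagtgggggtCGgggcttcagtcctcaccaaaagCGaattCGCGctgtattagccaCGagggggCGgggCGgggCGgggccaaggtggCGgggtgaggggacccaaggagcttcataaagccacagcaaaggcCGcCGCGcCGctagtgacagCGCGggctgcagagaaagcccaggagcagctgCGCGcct

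Ncr1 holds 0 CG in this window, H2-DMb2 and Cd5 hold 3 each, and Tbx21 holds 21. Ccr6 holds 2 at this start and 10 at its other listed start. CG reads the same on both strands. Among all 17274 genes with a listed start, 95.2% had at least 1 CG in the window and the median was 15. The 9828 genes with H3K4me3 in all 6 KO libraries had a median of 24 CG, from 8095 genes with a listed start. For the genes that differed between libraries the count covers only a part of them. A listed start exists for 74.3% of the genes held by 1 to 5 KO libraries, and for 63.5% of those found in a single subset. Among those with a listed start, the median was 16 CG for the first group and 7 for the second.

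The KO lists differed in length. On the 19 autosomes and the X chromosome, CCR6+ replicates 1 and 2 held 11794 and 18032 peaks. The NKp46+ lists held 16635 and 18127, and the DN lists 12446 and 16422. Replicate 2 was the longer list in each subset, and the 2 shortest were replicate 1 of CCR6+ and of DN. Neither peak number (exact permutation p = 0.533) nor median peak width (exact permutation p = 0.933) gave an extreme spread of subset means. The smallest p possible is 0.0667 for each, so neither could pass. The 6 WT lists held 12838 to 15397 peaks. The lists carry no read totals, so sequencing depth is unknown, and a gene counted as lacking H3K4me3 is a gene at which that list has no peak.

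**Figure D1:**
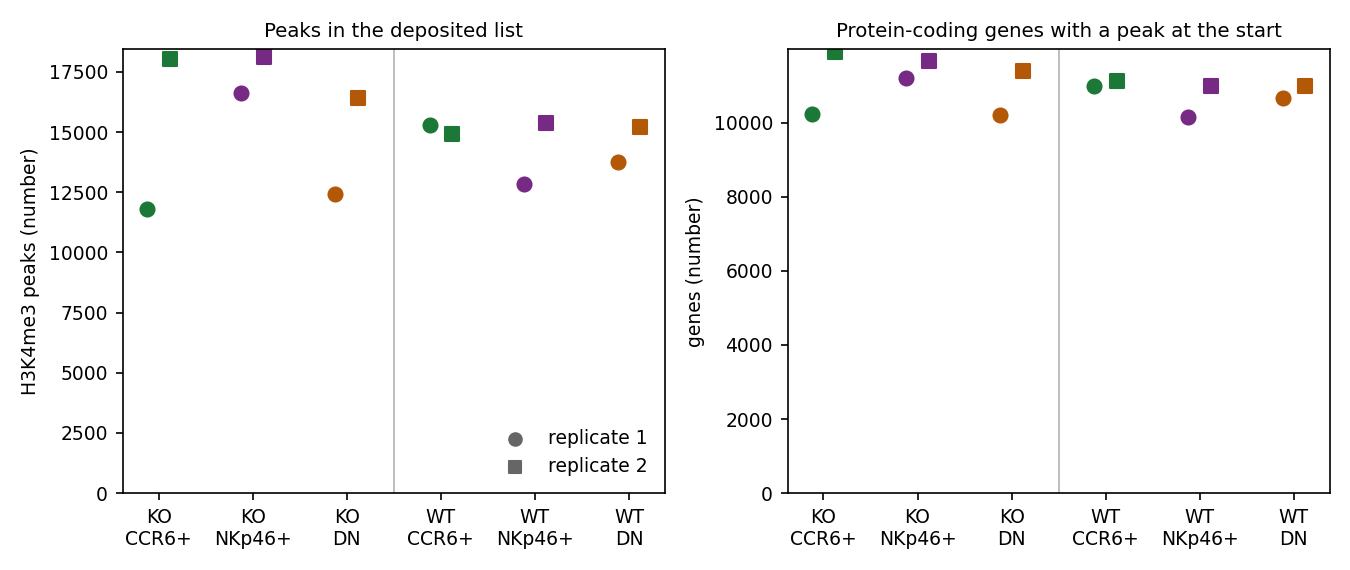
Number of H3K4me3 peaks (left) and of protein-coding genes with a peak at the start (right) in each library, by genotype and subset; circles are replicate 1, squares replicate 2. The KO lists run from 11794 to 18127 peaks, and replicate 2 is higher than replicate 1 in every KO subset.

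The check of the deleted protein is not clean. The CFP1 libraries labelled KO held 1312 and 1250 peaks for CCR6+ cells, 714 and 4891 for NKp46+ cells, and 1131 and 8881 for DN cells. The 6 WT libraries held 4574 to 7983. The CFP1 library labelled KO DN replicate 2 thus lies above every WT library, and the library labelled KO NKp46+ replicate 2 lies within their range. These are separate libraries from the H3K4me3 libraries of the same name. Values that rest on the H3K4me3 libraries labelled KO DN replicate 2 or KO NKp46+ replicate 2 carry this limit, and how far the deletion had gone in those cells was not tested. Cxxc1 itself held H3K4me3 at its gene ends in all 6 KO libraries, which says nothing about the deletion.

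Across all starts, the KO subsets shared most of their H3K4me3, and the small differences followed the replicate number more than the subset. Of 21631 protein-coding genes, 9828 held a peak in all 6 KO libraries, 9470 in none, and 2333 in 1 to 5 of them. The likeness of 2 lists was measured as a Jaccard index, the genes held by both divided by the genes held by either. The replicates of CCR6+ reached 0.858, those of NKp46+ 0.944 and those of DN 0.890. Lists of different subsets averaged 0.911, above the average of 0.897 for lists of the same subset. The difference between these averages, the subset index, was −0.0133 (exact one-sided permutation over 15 pairings of the libraries, p = 0.667; the smallest p possible is 0.0667). Of the 6 KO libraries, only NKp46+ replicate 1 had its own partner as the closest KO list.

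In the names of the peaks, all 6 H3K4me3 libraries of replicate 1 carry 1 tag and all 6 of replicate 2 another, and what the tag stands for is not given. The 2 short lists, CCR6+ and DN replicate 1, reached 0.934 with each other, and the 3 lists of replicate 2 reached 0.943 to 0.956. Lists of different subsets averaged 0.930 ± 0.027 (SD, 6 pairs) when they shared a replicate number and 0.891 ± 0.036 (6 pairs) when they did not. In all, 218 genes were held by every replicate 2 list and no replicate 1 list of the KO, and 2 showed the reverse. Replicate number, list length and any difference between the preparations cannot be told apart.

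When only pairs from different replicate numbers were compared, same-subset lists were slightly the more alike. They averaged 0.897 and different-subset lists 0.891, a subset index of 0.00618, the highest of the 6 possible assignments (exact permutation with a replicate block, p = 0.167, the smallest possible). The WT index computed in that way was 0.0115 (exact permutation p = 0.167, also the smallest possible). From all pairs the WT index was 0.00471 (exact permutation p = 0.267). KO minus WT was −0.0180 from all pairs (exact two-sided permutation of genotype within subsets, p = 0.287) and −0.00535 with the block (exact permutation p = 0.719), so no difference between genotypes was shown. The difference from all pairs reached an exact permutation p of 0.037 without KO NKp46+ replicate 1 and of 0.0278 without KO NKp46+ replicate 2, and it turned to 0.00628 without KO CCR6+ replicate 2.

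**Figure D2:**
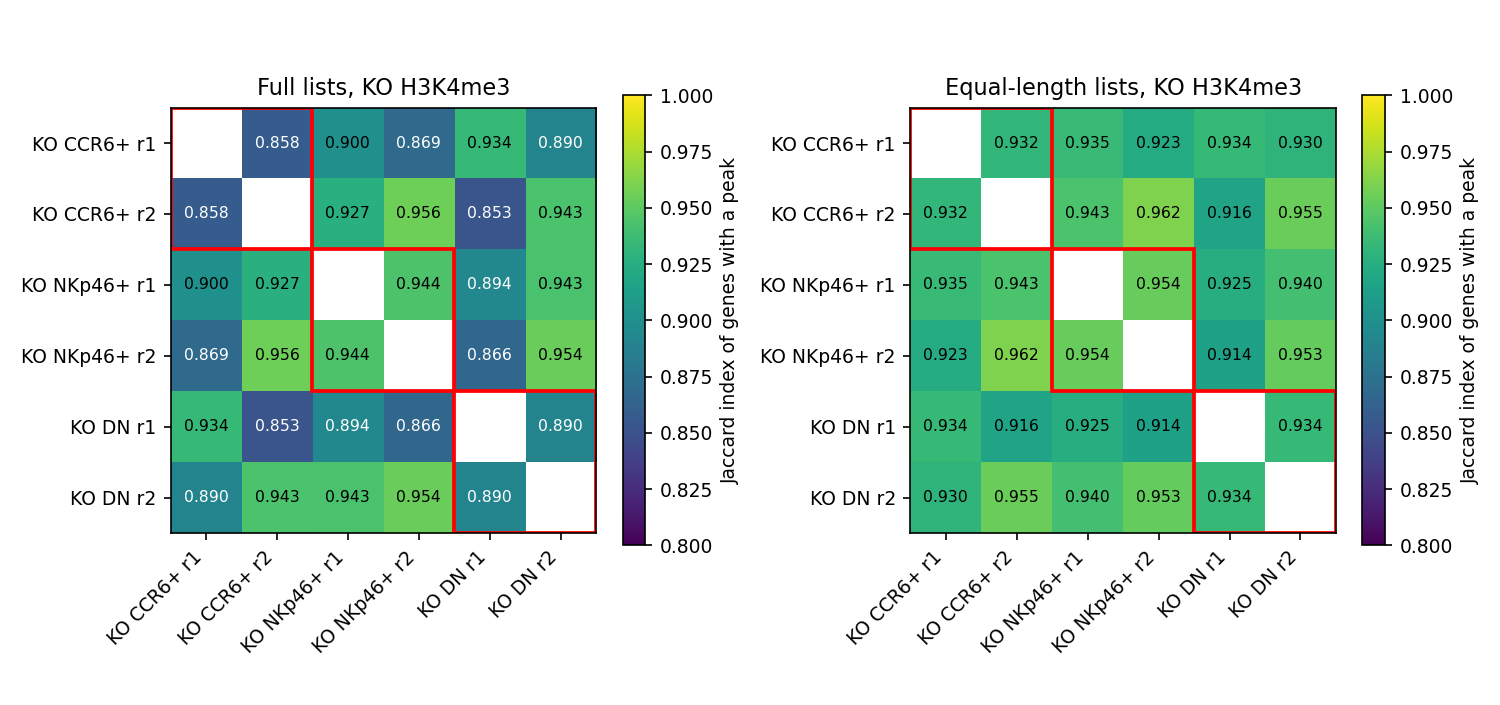
Jaccard index of genes with an H3K4me3 peak for each pair of KO libraries (r1 and r2 are the replicates), from the full lists (left) and from lists shortened to the same number of peaks (right); red frames mark pairs of the same subset. In the full lists the pair of CCR6+ replicates is at 0.858, while CCR6+ and NKp46+ replicate 2 are at 0.956.

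The KO lists were next set against the 6 WT lists, which share the peak-name tags of the KO lists. KO and WT lists of different subsets averaged 0.922 when they shared a replicate number and 0.903 when they did not. KO lists averaged a Jaccard index of 0.915 with WT lists of their own subset and 0.913 with WT lists of the other subsets, a difference of 0.00207 (exact one-sided permutation over 90 arrangements, p = 0.389). When every list was shortened to its 11794 peaks of highest −log10 p, the length of the shortest list, the difference rose to 0.00604 (exact permutation p = 0.0111, the smallest this design can give). This was 1 of the alternatives tried, and over the others that use full lists and all 12 libraries the exact permutation p ran from 0.189 to 0.522. With a replicate block the shortened lists gave p = 0.0278 by exact permutation, again the smallest possible. Within replicate number 1 the difference was 0.00364 and within number 2 it was 0.00868 for shortened lists, against −0.00824 and 0.00761 for full lists.

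Leaving out each library in turn kept the difference of the shortened lists between 0.00302 and 0.00858. It no longer passed without WT DN replicate 1 (0.00386, exact permutation p = 0.0778) or WT DN replicate 2 (0.00302, exact permutation p = 0.189). Without the libraries with the CFP1 limit it was 0.00429 (KO DN replicate 2 left out) and 0.00849 (KO NKp46+ replicate 2 left out), each with an exact permutation p of 0.0333, the smallest possible there.

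In the shortened lists, KO CCR6+ and KO DN were nearest to their own WT subset. KO DN replicates 1 and 2 had a mean index of 0.940 and 0.951 with WT DN, above 0.922 and 0.939 with WT CCR6+ and 0.928 and 0.933 with WT NKp46+. KO CCR6+ replicate 2 had 0.937 with WT CCR6+ against 0.928 with WT DN and 0.917 with WT NKp46+. KO CCR6+ replicate 1 was as close to WT DN (0.928) as to WT CCR6+ (0.928). Both KO NKp46+ lists were nearest to WT CCR6+ (0.928 each), and WT NKp46+ was the farthest of the 3 for replicate 1 (0.921) and for replicate 2. The 4 KO lists of CCR6+ and DN thus had their own WT subset as the closest, and the 2 NKp46+ lists did not. Whether the subsets differ in this respect was not tested. WT NKp46+ was also the farthest WT subset for both KO CCR6+ lists and for KO DN replicate 2. The shortened list of WT NKp46+ replicate 1 held the fewest genes of all (9947). The subset index within KO was positive with shortened lists, at 0.00407 from all pairs (exact permutation p = 0.333) and 0.0121 with the replicate block (exact permutation p = 0.167, the smallest possible).

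**Figure D3:**
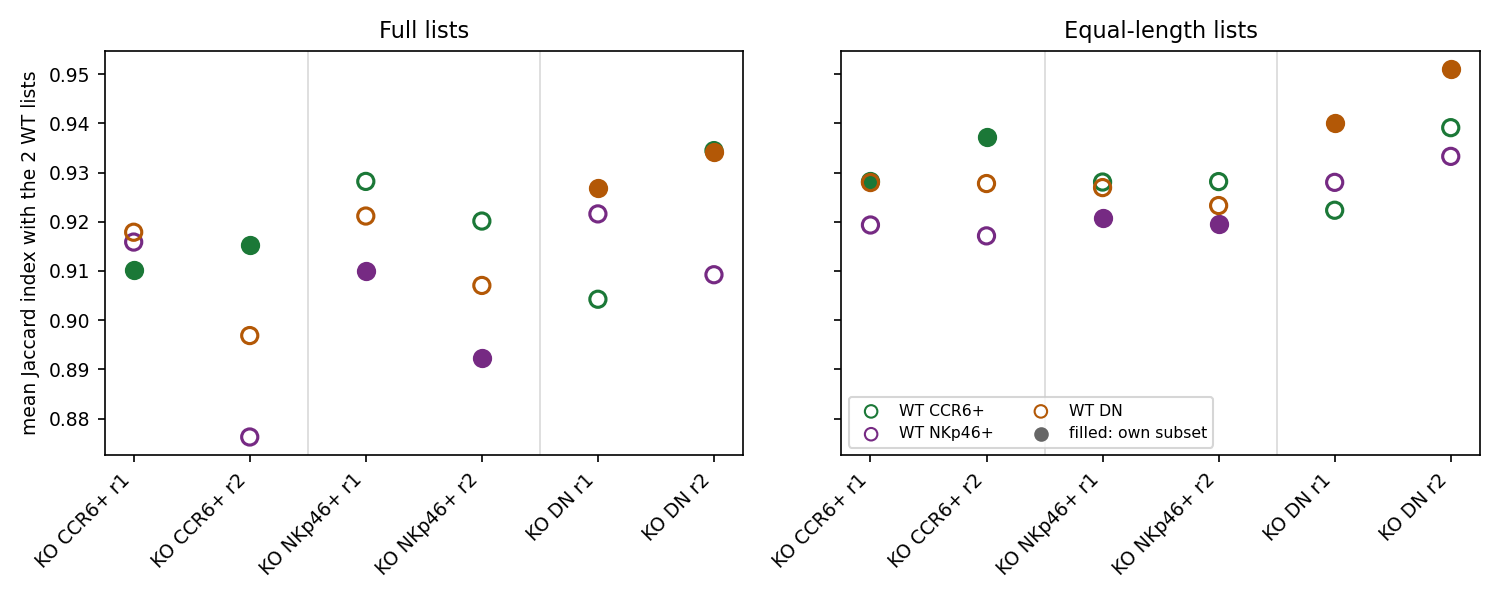
Mean Jaccard index of each KO library with the 2 WT lists of each subset, for full lists (left) and equal-length lists of 11794 peaks (right); filled circles are the library's own subset. On the right the filled circle is the highest for the 4 CCR6+ and DN libraries, level with WT DN at 0.928 in CCR6+ replicate 1. It is the lowest for both NKp46+ libraries, and WT NKp46+ is also the lowest for both CCR6+ libraries and DN replicate 2.

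Few genes carried H3K4me3 in a single KO subset. Only 11 genes (0.0509% of 21631) were held by both CCR6+ libraries and no other KO library, 31 (0.143%) by both NKp46+ libraries alone, and 10 (0.0462%) by both DN libraries alone. Together these are 52 genes, or 0.24% (exact one-sided permutation p = 0.333, and 0.167 with a replicate block, the smallest possible there). In WT the counts were 105 (0.485%), 4 (0.0185%) and 20 (0.0925%), together 129, or 0.596% (exact permutation p = 0.133). The KO total was lower than the WT total by 77 genes, a difference that did not pass (exact two-sided permutation of genotype within subsets, p = 0.111; a test added after seeing the counts). With 1 KO library left out the KO total ran from 75 (without DN replicate 2) to 307 (without CCR6+ replicate 1), and it was 99 without NKp46+ replicate 2; a lone library meets the pattern more easily by construction. With equal-length lists the totals were 101 genes in KO (0.467%) and 117 in WT (0.541%). These were mostly other genes in KO. Only 2 of 36 in CCR6+, 1 of 28 in NKp46+ and 1 of 37 in DN also had the pattern by full lists.

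Taken by pairs of subsets, the KO contrasts were of unequal size. Both CCR6+ libraries and neither NKp46+ library held 25 genes (0.116%), and 44 (0.203%) showed the opposite. Both CCR6+ and neither DN library held 31 (0.143%), and 16 (0.074%) the opposite. Both NKp46+ and neither DN library held 143 (0.661%), and 31 (0.143%) the opposite. These are 221 different genes (1.02%), against 305 (1.41%) in WT. There the counts for CCR6+ over NKp46+ and its opposite were 185 (0.855%) and 14 (0.0647%). For CCR6+ over DN they were 152 (0.703%) and 39 (0.18%), and for NKp46+ over DN 15 (0.0693%) and 73 (0.337%). By full lists CCR6+ thus led both of its contrasts in WT, and NKp46+ led both of its contrasts in KO, where its replicate 1 list is the longest of that number. The KO order turned with equal-length lists, and the WT lead of CCR6+ remained. In KO, NKp46+ over CCR6+ then held 51 genes (0.236%) against 84 (0.388%) for the opposite, and NKp46+ over DN 90 (0.416%) against 117 (0.541%). CCR6+ over DN held 88 (0.407%) against 58 (0.268%). In WT, CCR6+ held 149 (0.689%) over NKp46+ and 110 (0.509%) over DN, against 30 (0.139%) and 55 (0.254%). Whether these orders differ between genotypes was not tested.

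A further 17 genes (0.0786%) lacked H3K4me3 in a single KO subset, against 44 (0.203%) in WT. KO CCR6+ lacked 3 (0.0139%), among them Mafa, a transcription factor (480, 689, 483 and 728 b in the other 4 KO libraries). KO NKp46+ lacked 4 (0.0185%): Sit1, Slamf1, Trat1 and Ramp3, a receptor activity modifier. KO DN lacked 10 (0.0462%), among them Arhgap28 and Car13, a carbonic anhydrase. The WT counts were 3 (0.0139%), 34 (0.157%) and 7 (0.0324%).

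Genes that had the same single-subset pattern in both genotypes were few. Of the 11 genes found only in KO CCR6+, 2 were also found only in WT CCR6+ (18.2% of the KO list and 1.90% of the WT list). These were Tlr4, the receptor for bacterial lipopolysaccharide, and H2-DMb2, a chaperone chain that loads peptides onto MHC class II. Of the 10 found only in KO DN, 2 were found only in WT DN (20% and 10% of the lists): Cd5, a surface inhibitor of T cell receptor signals, and the predicted gene Gm40011. None of the 31 genes found only in KO NKp46+ had that pattern in WT, where the list held 4 genes. With equal-length lists the shared genes were 7 of the 36 found only in KO CCR6+ (0.166%) and the 80 found only in WT CCR6+ (0.37%), among them Flt3, a cytokine receptor of lymphoid progenitors. In DN they were 5 of 37 (0.171%) and 29 (0.134%), among them Cd3d and Cd6. In NKp46+ they were 0 of 28 (0.129%) and 8 (0.037%). By full lists Flt3, Cd3d and Cd6 were not confined to a single subset. Flt3 was also held by both KO NKp46+ libraries, KO DN replicate 2 and WT DN replicate 1. Cd3d and Cd6 were also held by KO CCR6+ replicate 2.

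Ncr1 held H3K4me3 in NKp46+ alone among the KO subsets. Its peak was 535 and 2262 b wide in the 2 KO NKp46+ libraries, and no peak was called in the other 4 KO libraries. In WT the peak was 1398 and 2539 b wide in NKp46+, 1846 b in DN replicate 2 and 447 b in CCR6+ replicate 2. H3K4me3 at the gene for this sort marker thus went with the label in the KO. Ncr1 was named by a rule that asks for both libraries of a KO subset and neither of another, so this separation is no test. In all, 31 of 21631 genes (0.143%) were held by both KO NKp46+ libraries alone. The gene for the other sort marker, Ccr6, held no peak at its listed starts in any KO library. In WT, Ncr1 was held by 1 library of each other subset. With equal-length lists the peak remained in KO NKp46+ replicate 2 and was no longer listed in replicate 1. In sorted cells measured in bulk, a mark carried by a few cells and a weak mark carried by all cells cannot be told apart.

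Other genes of the natural killer programme showed smaller contrasts. Xcl1, a chemokine for dendritic cells, had a peak of 668 and 2257 b in KO NKp46+, 1986 b in KO DN replicate 2 and none in KO CCR6+. WT had it in the corresponding 3 libraries (422, 2357 and 1983 b). Prf1, which encodes perforin, was held by the same 3 KO libraries (487, 707 and 926 b) and by 4 WT libraries. By full lists, Tbx21 (T-bet), Ifng and Cxcr3 held a peak in all 12 libraries. Klrc1, an inhibitory receptor, held a peak in KO CCR6+ replicate 2 (819 b), both KO NKp46+ libraries (450 and 683 b) and KO DN replicate 2 (972 b). In WT it was held by both NKp46+ libraries and DN replicate 2 and by neither CCR6+ library. With equal-length lists Klrc1 and Xcl1 were in no KO library. Tbx21 then remained in all 12 libraries. Ifng and Cxcr3 were in both KO DN lists and neither KO NKp46+ list, while both WT NKp46+ lists held them. Of the KO CCR6+ lists, both held Cxcr3 and replicate 1 alone held Ifng. Of the 25 NKp46+ marker genes, 8 and 19 held a peak in KO CCR6+, 17 and 22 in KO NKp46+, and 13 and 20 in KO DN. The highest replicate 1 and the highest replicate 2 count were thus both NKp46+. Over all genes the share was also highest in NKp46+ among replicate 1 lists (51.8%, against 47.3% in CCR6+ and 47.1% in DN). With equal-length lists that order turned, and KO DN held the most without overlap, at 13 and 15. KO CCR6+ then had 8 and 9 markers, against 3 and 10 for KO NKp46+. Among WT equal-length lists, NKp46+ was the highest within each replicate number, at 15 and 20. WT DN followed with 13 and 18, then WT CCR6+ with 10 and 11. Whether the genotypes differ in this was not tested.

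MHC class II genes held peaks most often in CCR6+. Of 15 genes of class II presentation, 10 and 15 held a peak in KO CCR6+, 7 and 7 in KO NKp46+, and 5 and 11 in KO DN. The WT counts were 10 and 13, 3 and 6, and 7 and 9. H2-DMb2 had peaks of 472 and 614 b in KO CCR6+ and of 757 and 504 b in WT CCR6+, and none in the other 8 libraries. By equal-length lists the H2-DMb2 peak remained in KO CCR6+ replicate 1 and in no WT library. H2-Eb1, a class II beta chain, had peaks of 401 and 1107 b in KO CCR6+ and 752 b in KO DN replicate 2, the same libraries as in WT (1108, 1140 and 467 b). Cd40, a costimulatory receptor, was held by both CCR6+ (600 and 1729 b) and both NKp46+ libraries (470 and 758 b) of the KO and by neither DN library. Tlr4 had peaks of 488 and 1274 b in KO CCR6+ and of 924 and 1374 b in WT CCR6+ alone. With equal-length lists it remained in both KO CCR6+ libraries and in WT CCR6+ replicate 2.

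The class II contrast rested on 1 KO library once list length was equal. KO CCR6+ replicate 1 then held 10 of the 15 genes and replicate 2 held 3, like the other KO subsets (3 to 4). WT CCR6+ held 8 and 9 against 3 to 4. Of all protein-coding genes, the equal-length lists held 10229 and 10580 in KO CCR6+ and 10077 to 10481 in the other KO subsets. B cell and myeloid genes, which also accompany class II, were counted beside these. By full lists, 1 and 3 of 12 B cell markers held a peak in KO CCR6+ and 0 to 1 in the other KO libraries. Of 14 myeloid markers, 2 and 7 did in KO CCR6+ and 1 to 6 in the others, also by full lists. With equal-length lists the B cell counts were 1 and 0 in KO CCR6+ and 0 in the others. The equal-length myeloid counts were 2 and 2 in KO CCR6+ and 1 to 2 in the others. The part of B cell and myeloid genes in the class II counts was not tested.

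T cell genes held peaks most often in DN. Of 14 T cell markers, 12 and 14 held a peak in KO DN, 6 and 12 in KO CCR6+, and 4 and 8 in KO NKp46+. With equal-length lists the counts were 12 and 12 in KO DN, 6 and 6 in KO CCR6+, and 2 and 1 in KO NKp46+, so that the 3 subsets did not overlap. WT showed 12 and 13 in DN, 5 and 6 in CCR6+, and 3 and 7 in NKp46+. Over all protein-coding genes the full KO lists held 47.1% and 52.7% in DN, 47.3% and 55.0% in CCR6+, and 51.8% and 53.9% in NKp46+. The equal-length KO lists held 10077 and 10481 genes in DN, 10229 and 10580 in CCR6+, and 10351 and 10443 in NKp46+. Neither is the order of the T cell genes. The T cell list is a description with no test, since it was used with earlier results of these data known.

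The named T cell genes make the pattern visible. Cd5 had peaks of 266 and 489 b in KO DN and 794 and 922 b in WT DN, and none in the other 8 libraries. The Cd5 peak remained, by equal-length lists, in DN replicate 1 alone in each genotype, while Cd3d and Cd6 were held by both DN libraries and no other library of either genotype. Cd3d, a chain of the T cell receptor complex, had peaks of 897 and 1321 b in KO DN and 1034 b in KO CCR6+ replicate 2. Its window touches that of Cd3g, so a peak between them counts for both. Cd6, a costimulatory receptor, had peaks of 1766 and 2377 b in KO DN and 1809 b in KO CCR6+ replicate 2, with none in KO NKp46+. Trat1, a T cell receptor adaptor, was held by both KO CCR6+ libraries (345 and 1028 b) and both KO DN libraries (440 and 2358 b) and by neither KO NKp46+ library. Sit1 and Slamf1, a signalling adaptor and a costimulatory receptor of lymphocytes, had that pattern too.

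Members of the T cell list held by both KO DN libraries and neither KO NKp46+ library were 4 of 14: Cd3d, Cd5, Cd6 and Trat1. Over all genes that pattern was met by 31 of 21631 (0.143%). In WT it was met by 2 of the 14 members and by 0.337% of all genes. Whether T cells were among the sorted DN cells was not tested. Of the defining markers, Cd3e held a peak in 5 of 6 KO libraries (685, 2262, 825, 810 and 2411 b) and was missing only from NKp46+ replicate 1.

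**Figure D4:**
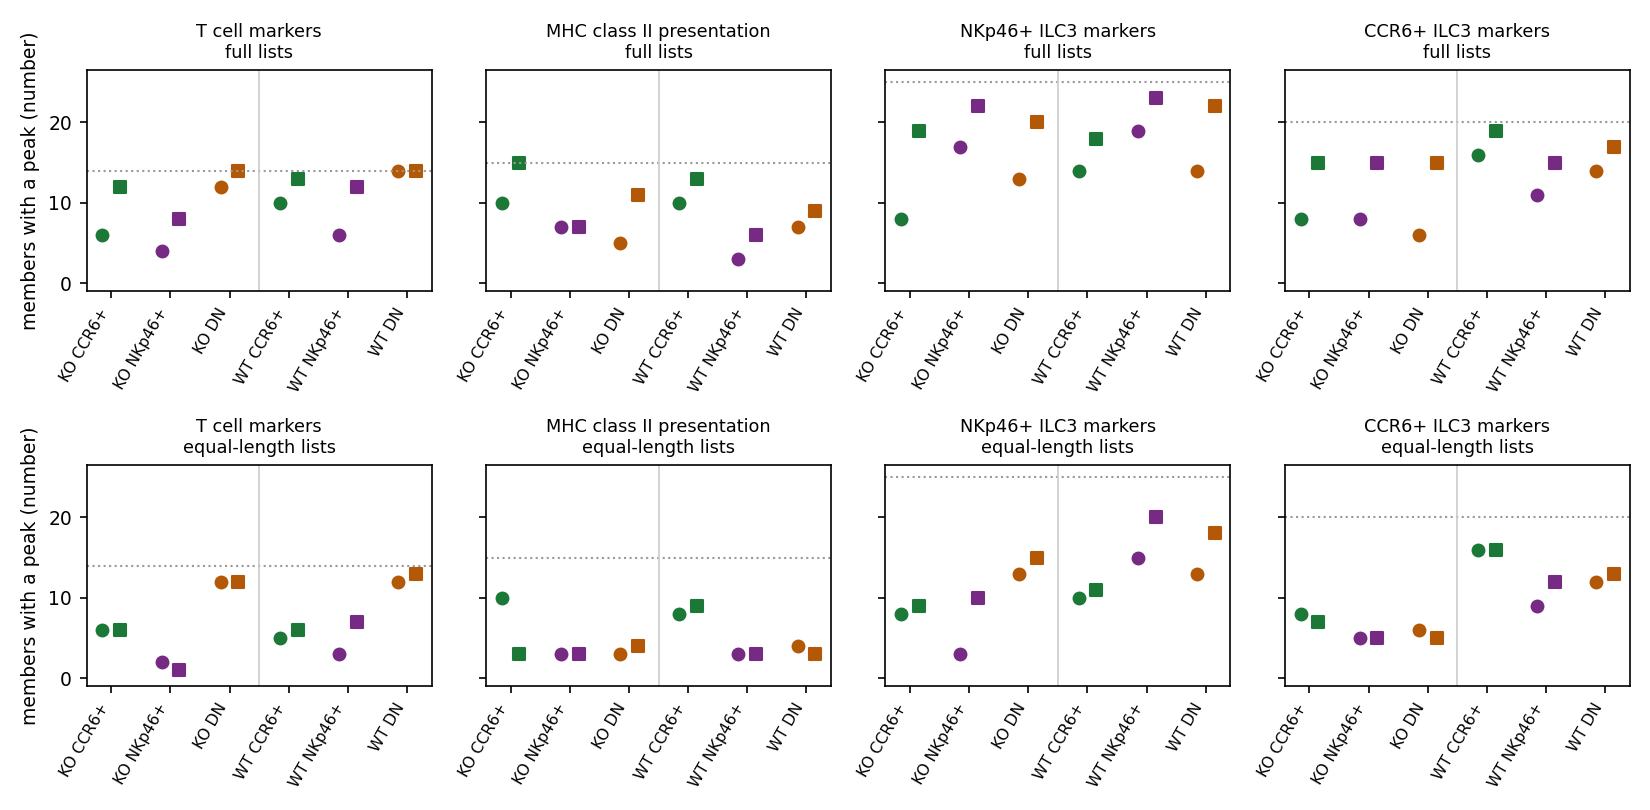
Members of 4 gene lists with an H3K4me3 peak in each library, for full lists (top) and equal-length lists (bottom); circles are replicate 1, squares replicate 2, and the dotted line is the number of members. With equal-length lists T cell markers number 12 and 12 in KO DN, 6 and 6 in KO CCR6+, and 2 and 1 in KO NKp46+.

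The genes that mark CCR6+ ILC3s held peaks equally often in KO CCR6+ and KO NKp46+ by full lists. Of 20 markers, 8 and 15 held a peak in KO CCR6+, 8 and 15 in KO NKp46+, and 6 and 15 in KO DN. In WT the counts were 16 and 19, 11 and 15, and 14 and 17. With equal-length lists KO CCR6+ was the highest, at 8 and 7 against 5 and 5 in KO NKp46+ and 6 and 5 in KO DN. So was WT CCR6+, at 16 and 16 against 9 to 13. H2-Aa, H2-Eb1 and Cd74 were then in KO CCR6+ replicate 1 alone among KO lists, and Cd93 in replicate 2 alone. Gpr183 was in KO CCR6+ replicate 2 and both KO DN lists. Over all protein-coding genes these lists held 10229 and 10580 genes in KO CCR6+, 10351 and 10443 in KO NKp46+, and 10077 and 10481 in KO DN. Ccr6, the sort marker, held no peak at its listed starts in any KO library, CCR6+ included. WT CCR6+ had peaks of 2799 and 3553 b there, with 479 b in NKp46+ replicate 2 and 2619 b in DN replicate 2. Inside the gene, KO CCR6+ replicate 2 alone among KO libraries had peaks (2 of them, covering 1671 b), whereas every WT library had at least 1.

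Several ILC3 cytokine and receptor genes held peaks in fewer KO than WT libraries, and the differences were not tested. Of 25 such genes, 18 held a peak in all 6 WT libraries and 9 in all 6 KO libraries. Over all 21631 protein-coding genes these counts were 10000 and 9828. Except for Il2ra, the genes named next were picked after their values were seen. Il2ra, Lta and Il1r1 are also among the CCR6+ markers counted above. Il23r, the interleukin-23 receptor, held a peak in KO CCR6+ replicate 2 (1225 b) and in none of the other 5 KO libraries, against all 6 WT libraries (1432 to 2814 b). Il2ra, the interleukin-2 receptor alpha chain, was held by NKp46+ replicate 2 (798 b) and both DN libraries (366 and 1987 b) of the KO and by neither CCR6+ library. All 6 WT libraries held it. Lta, a lymphotoxin chain, was held by 2 KO libraries and Il1r1, the interleukin-1 receptor, by 3, all of replicate 2, against 6 of 6 in WT for each. Il22 and Il17a had no peak at their starts in any of the 12 libraries.

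**Figure D5:**
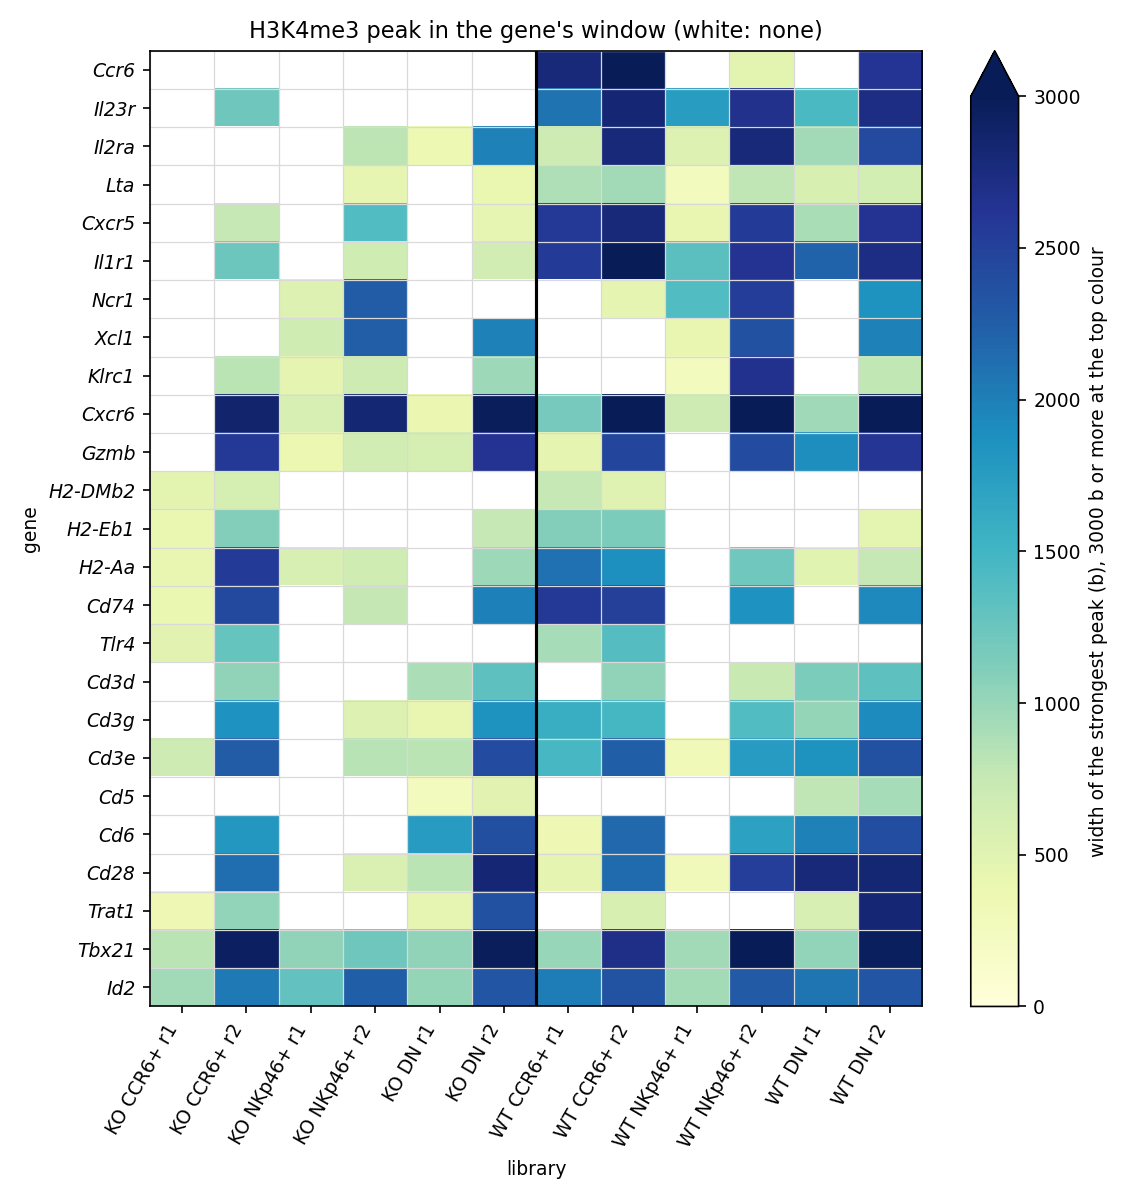
Width of the widest H3K4me3 peak (named strongest on the colour bar) in the window of 25 genes (rows). Columns are 6 KO and 6 WT libraries, where r1 and r2 are the replicates. White means no peak, and colour runs from 0 to 3000 b. Ncr1 is filled only in the 2 NKp46+ libraries of the KO, H2-DMb2 and Tlr4 only in CCR6+ and Cd5 only in DN of both genotypes, and Ccr6 is empty throughout the KO.

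Lists of transcription factors and regulators varied little between KO libraries. Of 24 ILC3 transcription factor genes, 19 to 20 held a peak in each KO library, and 1 differed by both libraries between subsets. This was Runx2, which held a peak in CCR6+ replicate 2 (904 b) and both NKp46+ libraries (615 and 1063 b) and in no WT library. Of 20 Notch pathway and conversion genes, 16 to 20 held a peak in each KO library. All 15 KLF and quiescence genes held a peak in all 6 KO libraries. Of 25 cytokine and receptor genes, KO CCR6+ held 10 and 18, KO NKp46+ 14 and 19, and KO DN 15 and 19, against 19 to 21 in WT. For 22 homing receptor genes, the KO counts were 6 and 15, 9 and 14, and 10 and 15, against 10 to 17 in WT. With equal-length lists DN was the highest KO subset in both lists, without overlap. The cytokine and receptor counts were then 15 and 14 in KO DN, 10 and 10 in KO CCR6+, and 8 and 11 in KO NKp46+. The homing receptor counts were 10 and 12, 6 and 8, and 5 and 5 in that order of subsets. In WT the equal-length cytokine and receptor counts were 17 to 18 in every library, and the homing receptor counts were 13 and 15 in DN against 9 to 12. Over all protein-coding genes the equal-length KO lists held 10077 and 10481 genes in DN, against 10229 to 10580 in the other 4 lists. Housekeeping genes were at 14 of 15 in every library, and 15 silent developmental genes at 0 to 4 in KO.

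Other genes met the single-subset pattern without belonging to a list. In KO CCR6+ alone these included Myof, a membrane repair protein (274 and 1318 b), Fgd2, an exchange factor for Cdc42 (280 and 1391 b), Pkib, an inhibitor of protein kinase A (361 and 1159 b), and Tbxa2r, the thromboxane receptor (333 and 624 b). Myof was held by all 6 WT libraries, so its pattern is a gap in KO NKp46+ and DN. In KO NKp46+ alone, Ptgs1, a prostaglandin synthase (625 and 684 b), was the gene of highest rank by fold enrichment. Ptgs1 was also held by 5 of 6 WT libraries, CCR6+ and DN among them. Krt8, an epithelial keratin (406 and 567 b), Ppl, a component of epithelial junctions, and Efhc2 also met this pattern and were in no WT library. In KO DN alone, Ccr4, a chemokine receptor (578 and 1763 b), and Vcam1, an adhesion molecule (253 and 1160 b), stood beside Slc28a2, a nucleoside transporter (305 and 487 b). In WT, Ccr4 was held by CCR6+ replicate 2, NKp46+ replicate 2 and both DN libraries, Slc28a2 by replicate 2 of NKp46+ and of DN, and Vcam1 by DN replicate 1.

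Markers of other cells are given beside the NKp46+ genes. Of the 31 genes found only in KO NKp46+, 16 were in no WT library. Of 14 epithelial markers, 4 and 5 held a peak in KO NKp46+, against 1 and 4 in CCR6+ and 2 and 2 in DN, and 2 and 3 in WT NKp46+. With equal-length lists the counts were 1 and 2, 1 and 2, and 2 and 2 in the same order of KO subsets. Of all protein-coding genes, the full lists held 51.8% and 53.9% in KO NKp46+, 47.3% and 55.0% in CCR6+, and 47.1% and 52.7% in DN. Of 14 myeloid markers, 6 and 3 held a peak in KO NKp46+, 2 and 7 in CCR6+, and 1 and 4 in DN. Epcam held a peak in all 12 libraries. Krt18, the keratin partner of Krt8, held one in both KO NKp46+ libraries (398 and 809 b) and in KO CCR6+ replicate 2 (551 b), and in no WT library. The epithelial genes Vil1, Fabp1, Fabp2, Muc2, Cdx1, Cdx2, Hnf4a, Krt19 and Krt20 had no peak at their starts in any of the 12. Silent developmental genes stood at 4 and 4 in KO NKp46+, 0 and 3 in CCR6+ and 0 and 2 in DN, and with equal-length lists 1 was held by KO NKp46+ replicate 2 and none by the other 5. Krt8, Ppl and Efhc2 were in no equal-length list. Their part in the NKp46+ count was not tested.

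CFP1 binding in WT was mostly at genes marked in every KO library. Of the 9828 genes with H3K4me3 in all 6 KO libraries, 72.1% held a CFP1 peak in at least 1 WT library. The share was 8.36% of the 2333 genes held by 1 to 5 KO libraries and 0.317% of the 9470 held by none. Of the 52 genes found in a single KO subset, 1 held CFP1 in any WT library. Both marks were read at the same windows, and a longer list raises every one of these shares.

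Most single-subset regions lay away from gene starts, as did most regions found in 1 library. Merging the peaks of the 6 KO libraries gave 21380 regions, of which both CCR6+ libraries alone held 29 (0.136%), both NKp46+ libraries 376 (1.76%) and both DN libraries 58 (0.271%). Together these are 463 regions, or 2.17% (exact one-sided permutation p = 0.333). Of these 463, 12.7% touched a gene window, against 53.8% of all 21380 regions, 85.7% of the 10473 found in all 6 libraries and 14.2% of the 3506 found in 1 library. Of the 463, 231 lay inside a gene away from the windows. Their median length was 670 b, against 1412 b for the regions found in all 6. In WT, 18600 regions gave 327 (1.76%), 57 (0.306%) and 128 (0.688%), together 2.75%. By full lists NKp46+ thus had the most single-subset regions in KO and CCR6+ in WT, a difference that was not tested. The KO order turned with equal-length lists, where DN had the most, 150 of 13931 regions (1.08%), against 90 (0.646%) in NKp46+ and 58 (0.416%) in CCR6+, together 298. The WT counts were then 143 (1.04%) in CCR6+, 95 (0.693%) in DN and 51 (0.372%) in NKp46+.

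Wide peaks, which often cover genes of cell identity, ranked subsets no more clearly over all pairs of lists. The 500 widest peaks of each KO list touched 477 to 538 genes, of which 79 were shared by all 6 libraries. Their subset index was −0.0820 in KO (exact permutation p = 0.667; 0.0350 and the smallest possible p of 0.167 with a replicate block) and −0.0933 (exact permutation p = 0.667) in WT. Among the 1222 genes with a wide peak in any KO library, 0 were wide only in both CCR6+ libraries (0.0%), 23 only in NKp46+ (1.88%) and 10 only in DN (0.818%), together 2.7%. In WT, 7 (0.648%), 6 (0.556%) and 9 (0.833%) were, together 2.04% of 1080. The 500th widest peak was 1557 to 2448 b wide, so the same width can pass in a list of narrow peaks and not in another. Sart3, among the 23, was 2296 b wide in KO NKp46+ replicate 2. It was 2343 b in KO CCR6+ replicate 2 and 2421 b in KO DN replicate 2. Genes are not always separate peaks here. Among the 23, Flii and Mief2 had the same widths in every library, as did Gemin2 and Sec23a.

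Of the 14 T cell markers, 1 and 4 were among the widest peaks in KO DN, 0 and 2 in KO CCR6+, and 0 and 0 in KO NKp46+. The genes named next from those wide in a single subset were picked after their values were seen. Cd2, an adhesion receptor of T and natural killer cells, had peaks of 2138 and 2461 b in KO DN, 446 and 2142 b in CCR6+, and 1224 b in NKp46+ replicate 2 alone. Rasgrp2, an activator of Rap1 in lymphocytes and platelets, had 1763 and 3066 b in DN against 1068 and 1818 b in CCR6+ and 1175 and 1895 b in NKp46+. For both genes the DN peak was the widest among the lists of its replicate number. Dgka, which dampens diacylglycerol signals in T cells, was wide in both DN libraries of WT as well. The 23 genes wide only in KO NKp46+ included Zbtb16, the factor PLZF of innate lymphocyte precursors (2189 and 2253 b), whose KO CCR6+ replicate 2 peak was wider at 2305 b.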

How the data were processed

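CUT&Tag peak lists of 6 KO and 6 WT H3K4me3 libraries were compared, with the 12 CFP1 lists used as a check. Per the submitters' processing notes, fastp 0.19.7, Bowtie2 2.3.5.1, Picard, MACS2 2.2.7.1 and ChIPseeker 1.28.3 were used on mm10; settings and controls: not given in the sources used here. For each library the authors deposited a narrowPeak list with a fold enrichment (ratio) per peak and, as −log10, its p-value and q-value. These deposited values served to filter or rank peaks inside their own list. Every peak had q of at most 0.05. Depth is unknown; deeper libraries can give longer lists.

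Gene positions are from RefSeq, assembly GRCm38.p6, which shares its coordinates with mm10: 17274 genes by listed starts and 4357 by both gene ends, of 21631 protein-coding genes. The start table was not planned in full, so 2 alternatives for it were added after seeing the data, as were those that combine equal-length lists with a left-out library or a replicate block and the equal-length counts per subset and pair. Exact permutations rearranged library labels, with a threshold of 0.05. No test per gene was run, since 2 libraries against 4 cannot go below 0.0667. Named genes were Cxxc1, list members held by both libraries of a KO subset and neither of another, and the genes of highest within-list fold rank in each single-subset pattern; other list members and genes named from equal-length lists or wide peaks were chosen after their values were seen. Some genes that this rule or the lists hold are not reported here. The members and lists were chosen with earlier results of these data known. Peak names carry 1 tag per replicate number, shared by all 6 H3K4me3 libraries of that number, and deviations of same-numbered libraries correlated across genes at 0.25 to 0.532 between KO subsets, so values with a replicate block are given beside those without. The computation was tested on simulated data and run in Python 3.11.15 with SciPy 1.17.1, NumPy 2.4.6, matplotlib 3.10.9 and pandas 2.3.3.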

Additional observations from a re-analysis of the deposited data

How the results depend on the processing

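The subset index in KO was negative under the settings tried for window, overlap, peak threshold, similarity and genes. It could not pass under any of them, since no p under 0.0667 is possible. It turned positive with equal-length lists (0.00407), with a replicate block (0.00618, exact permutation p = 0.167, the smallest possible) and with both (0.0121), and ran from −0.0365 to 0.011 with a library left out, positive without either CCR6+ library or DN replicate 2. In WT it turned negative at fold 5 or more (−0.00102), at −log10 q 5 or more (−0.00020) and by bases (−0.0499), and ran from −0.0023 to 0.0235 with a library left out. KO minus WT ran from −0.0412 to 0.00628 with a library left out. The KO to WT match turned negative at −log10 q 5 or more (−8.14e-05) and within replicate number 1 (−0.00824), ran from −0.00326 to 0.00673 with libraries left out of the full lists, and passed with equal-length lists (0.00604). With those it ran from 0.00302 to 0.00858 with a library left out, and within numbers 1 and 2, where no p under 0.167 is possible, it was 0.00364 and 0.00868. The index of wide peaks turned positive under the replicate block (0.035) and ran from −0.179 to 0.00686 with a library left out.

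Genes in a single KO subset numbered 101 with equal-length lists, most of them not among those of the full lists. The count was 33 among genes with a listed start (fewer genes tested) and 75 to 307 with a library left out. A lone library meets the pattern more easily by construction. Regions numbered 258 at −log10 q 5 or more, 298 with equal-length lists, and 766 to 1536 with a library left out. The cause of the other changes was not tested. Peak number and width could not pass at any setting, since no p under 0.0667 is possible. The replicate block changed no call beyond those named. Depth, which is unknown, limits every absence of a peak.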
